A study of Homo sapiens with 9 samples.

Results

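The control state of SH-Sy5y cells was described from the 3 libraries labelled as transfected with a negative control oligonucleotide, of 9 libraries in all, and over all 14943 genes of the deposited count table. SH-Sy5y is an established human neuroblastoma cell line, obtained by the study from ECACC. The study looked for direct targets of miR-1229-3p and had 3 groups of 3 libraries: the control (Ctrl, 40 pmol of Neg. Ctrl. oligonucleotide and no mimic), miR-1229 10nM (20 pmol of each) and miR-1229 20nM (40 pmol of mimic and no Neg. Ctrl.). All cells were given a lipid transfection reagent on the day after seeding, and the labels give 48 h of transfection for all 9 libraries. The mimic libraries entered only the scaling factors and are compared with nothing here. Cells without transfection were not analysed here, so resting means 48 h after a control oligonucleotide. RNA of a pair of wells was pooled where possible, and no label says that the 3 controls came from separate cultures. The spread given below is therefore that between these libraries and may be technical.

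Neuroblastoma arises from precursors of the sympathetic nervous system and the adrenal medulla, which descend from the neural crest. In this lineage a set of transcription factors that includes HAND2, GATA3, PHOX2A and ISL1 maintains the noradrenergic identity, in which tyrosine is turned into dopamine and noradrenaline and stored in dense-core vesicles together with granins. Neuroblastoma cells are also known in a mesenchymal state that resembles migrating neural crest cells.

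Levels of a gene are given as CPM, counts scaled to 1e6 per library, in Ctrl replicates 1, 2 and 3 in that order, and as mean ± SD over these 3 libraries. Ratios between genes use only a length-scaled level. For it, counts were divided by the length of 1 transcript per gene and rescaled to the same sum in each library. Where genes are ordered by CPM, the order is one of counts and can differ per length. The control libraries held 18.4 to 28.2 M counts (M, 1e6 counts). In the controls 66 genes were at a mean of 1000 CPM or more, 2401 at 100 CPM or more, 10497 at 10 CPM or more and 1237 under 1 CPM, with a median of 27.96 CPM. The median length-scaled level of all genes was 19.1. The authors removed low genes before deposit, and transcripts were summed by symbol. A gene without a row is written as not listed. Why a given gene has no row is not known, so this says nothing of its level. The lowest third-highest value of any listed gene over the 9 libraries was 0.432 CPM. Nearly all of the table was of protein-coding genes: 14050 of its rows matched a protein-coding gene and 2 a long noncoding RNA, and none of 13 long noncoding RNAs looked for was listed. Of 20020 protein-coding genes of the annotation, 70.2% were listed, 51.5% were at 10 CPM or more and 2379 genes were at 100 CPM or more. These values are the background for the counts of lists and families below. These are bulk libraries, in which fewer cells of a type and less RNA per cell cannot be told apart.

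The defining markers of a noradrenergic neuroblastoma cell were among the highest genes. DBH, the enzyme that makes noradrenaline from dopamine, was at 1534, 1373 and 1624 CPM. HAND2, a basic helix-loop-helix factor of the sympathetic lineage, was at 1234, 1218 and 1054 CPM. GATA3, a zinc finger factor needed for sympathetic neurons, was at 508, 478 and 415 CPM. CHGA, the vesicle protein chromogranin A, was at 489, 499 and 651 CPM. HAND2 and GATA3 were lowest in Ctrl replicate 3, where DBH and CHGA were highest. On the length-scaled scale the order was DBH (1281 ± 114), HAND2 (978 ± 77.0), CHGA (641 ± 112) and GATA3 (352 ± 33.4; all SD, n = 3), which places them 94th, 120th, 185th and 386th of the 14859 genes with a length. Each step in that order was larger than the SDs of its neighbours. In GRCh38.p14, DBH lies on chromosome 9 (133636363 to 133659329, plus strand), HAND2 on chromosome 4 (173524969 to 173530229, minus strand), GATA3 on chromosome 10 (8045378 to 8075198, plus strand) and CHGA on chromosome 14 (92923150 to 92935285, plus strand). Whether strand was used in counting is not stated, so reads of the antisense genes beside HAND2 and GATA3, which are not listed, cannot be told apart from theirs.

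Of 20 transcription factors of the noradrenergic programme, 19 were listed, all 19 at 10 CPM or more and 11 at 100 CPM or more. INSM1, a zinc finger factor of neuroendocrine cells, was not listed. The median length-scaled level of the 19 was 78.0, beside 19.1 over all genes. With the union of exons as the length it was 133, beside 20.5 over all genes. PHOX2A, a homeobox factor that drives DBH transcription, was at 676, 717 and 646 CPM. GATA2 was at 1112, 1133 and 1116 CPM, a range narrower than that of GATA3. On the length-scaled scale GATA2 was 2.20 ± 0.231 times GATA3 (SD, n = 3), and HAND2 was 4.67 ± 0.578 times HAND1. ISL1 (221), HAND1 (210), TFAP2B (208) and TBX2 (194) were close in length-scaled level, neighbours having SDs that overlapped, and were not separated here. SIX3 (78.0), LMO1 (72.2) and SOX11 (68.9) were lower on that scale. KLF13, SATB1, KLF7, ZNF536 and EYA1 had means of 72.8 to 151 CPM.

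The median CV (coefficient of variation, SD over mean) of the 19 was 4.75%. The lowest of the 19 was DACH1, at 15.9, 15.1 and 15.1 CPM.

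**Figure D1:**
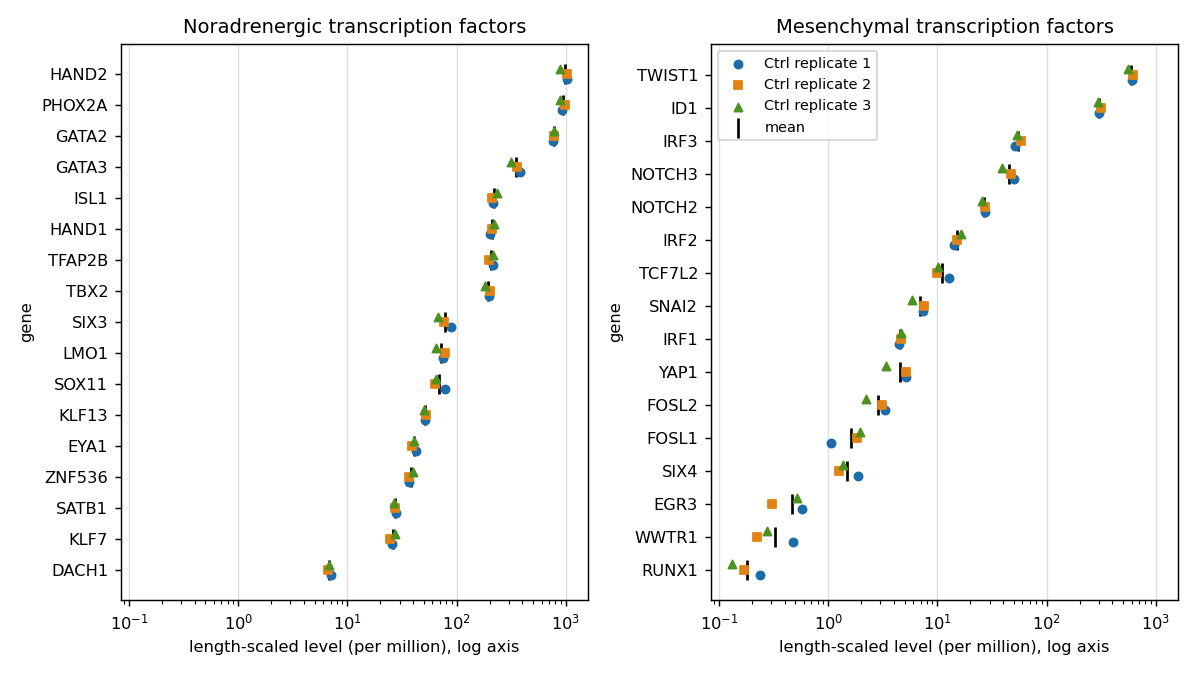
Length-scaled level (log axis) of listed noradrenergic (left) and mesenchymal (right) transcription factors in each control library (coloured symbols) and their mean (black bar). The 17 noradrenergic factors drawn, of 19 listed, lie between DACH1 at 6.81 and HAND2 at 978. The 16 listed members of the mesenchymal list, which include NOTCH2, NOTCH3, ID1, YAP1 and WWTR1, reach from RUNX1 at 0.179 to TWIST1 at 591.

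The list of mesenchymal transcription factors was mixed. It also holds other regulators, counted here as factors: the receptors NOTCH2 and NOTCH3, the inhibitor ID1, and the co-activator YAP1 with its paralog WWTR1. Of its 22 members 16 were listed, 8 at 10 CPM or more and 4 at 100 CPM or more. The median length-scaled level of the 16 was 5.74. TWIST1, a helix-loop-helix factor of mesenchyme, was at 426, 430 and 386 CPM. ID1, an inhibitor of helix-loop-helix factors, was at 128, 133 and 123 CPM. NOTCH3, a receptor that can drive the mesenchymal state, was at 189, 176 and 145 CPM, and NOTCH2 was at 135, 134 and 123 CPM. These 4 genes were lowest in Ctrl replicate 3. IRF3 (37.2 CPM), TCF7L2 (19.1 CPM) and IRF2 (14.8 CPM) were also at 10 CPM or more. By length-scaled level the order was TWIST1 (591), ID1 (303), IRF3 (54.3), NOTCH3 (45.5) and NOTCH2 (26.6). YAP1, a co-activator of the Hippo pathway, was at 12.02, 11.89 and 7.82 CPM, and its paralog WWTR1 was at 1.02, 0.487 and 0.596 CPM. SNAI2 had a mean of 6.47 CPM and RUNX1 of 0.456 CPM, while PRRX1, TWIST2, RUNX2, MEOX1 and MEOX2 were not listed.

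All 11 surface and matrix genes of the mesenchymal programme were listed, 8 of them at 10 CPM or more. VIM, the intermediate filament vimentin, was at 1019, 1043 and 995 CPM. LGALS1, the lectin galectin-1, was at 241, 258 and 278 CPM and had a length-scaled level of 1142. THY1 (mean 109.5 CPM), FN1 (116 CPM) and the growth factor receptor PDGFRB (123 CPM) were also above 100 CPM. CD44, a hyaluronan receptor often used to sort mesenchymal neuroblastoma cells, was at 1.34, 1.35 and 1.38 CPM. NT5E, which encodes CD73, had a mean of 4.84 CPM.

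The listed markers of other cell types were low in most lists. No listed member reached 10 CPM for Schwann and neural crest cells (6 of 12 listed, summed level of 20.0 to 24.9 CPM) or melanocytes (3 of 6, 9.50 to 11.4 CPM). Nor did one for adrenal cortex (2 of 7, 1.24 to 1.52 CPM) or leukocytes (2 of 8, 4.76 to 5.62 CPM). The same held for endothelium (1 of 6, 0.487 to 0.636 CPM), epithelium (4 of 8, 5.80 to 7.68 CPM), astrocytes (3 of 6, 6.37 to 7.78 CPM) and oligodendrocytes (1 of 6, 0.149 to 0.601 CPM). By CPM the highest of these markers were SOX9 (8.99 CPM), MITF (6.26 CPM), CLDN4 (5.08 CPM), GJA1 (4.97 CPM), S100B (4.50 CPM), SOX2 (4.49 CPM), PMEL (3.76 CPM) and CD68 (3.45 CPM). Their defining members SOX10, TYR, NR5A1, PTPRC, PECAM1, KRT8, GFAP and OLIG2 were not listed, so the levels of these are not known. The fibroblast list differed, with 6 of 7 members listed, 5 at 10 CPM or more and a summed level of 216 to 296 CPM. Its members were PDGFRA at 162, 144 and 115 CPM, COL3A1 at 48.4, 47.2 and 24.1 CPM, LUM at 29.6, 36.7 and 26.5 CPM, DCN at 26.4, 34.3 and 27.0 CPM, COL1A1 at 27.2, 27.8 and 21.6 CPM and COL1A2 at 2.05, 1.51 and 1.97 CPM. PDGFRA and both collagens above 20 CPM were lowest in Ctrl replicate 3. FAP, the activation marker of fibroblasts, was not listed, and whether other cells took part in these levels was not tested.

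Of 8 pluripotency and stem cell genes, NES was at 341, 353 and 372 CPM and LIN28B, an oncogenic inhibitor of let-7 maturation in neuroblastoma, was at 18.4, 18.4 and 19.7 CPM. SOX2 (mean 4.49 CPM), POU5F1 (1.38 CPM) and PROM1 (3.72 CPM) were low, and NANOG and LIN28A were not listed.

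**Figure D2:**
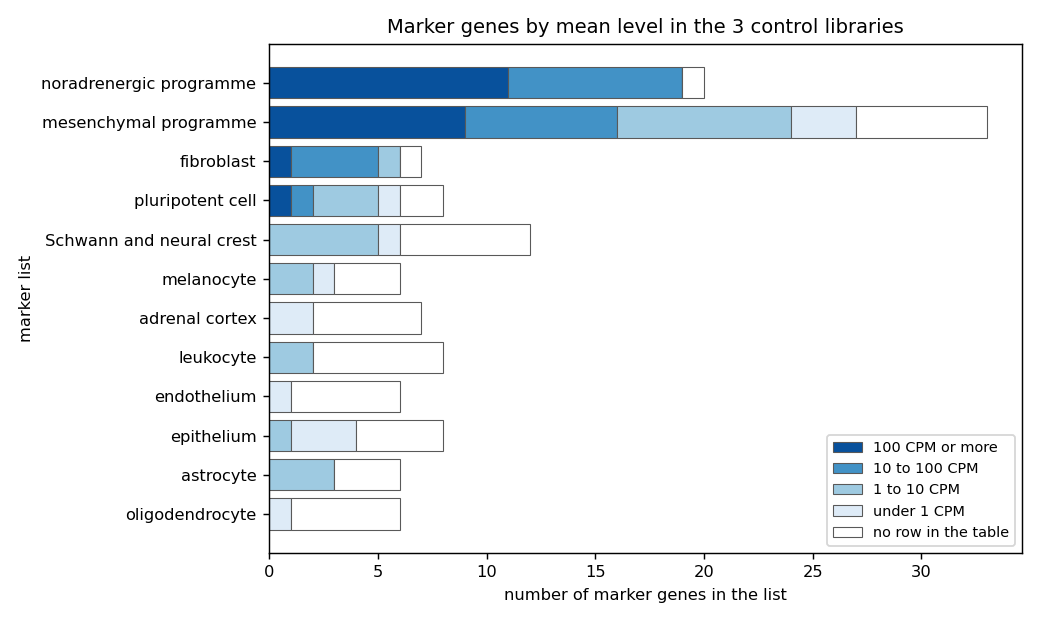
Number of genes of each marker list (bars, in genes) by mean level in the 3 control libraries, from 100 CPM or more (dark blue) to genes without a row (white). The noradrenergic list has 19 of 20 members at 10 CPM or more, the fibroblast list 5 of 7, and 8 of the other lists have no listed member there.

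The catecholamine pathway was read step by step, from tyrosine to uptake and breakdown, and its levels were uneven. TH, the enzyme of the first and rate-limiting step, was at 0.565, 0.595 and 0.633 CPM, which rests on 16, 11 and 17 counts. DDC, which makes dopamine, was at 123, 129 and 148 CPM. DBH, the next step, was far higher in each library (above). On the length-scaled scale the DBH level was 8.35 ± 0.722 times that of DDC (SD, n = 3), and the DDC level was 202 ± 8.64 times that of TH. PNMT, which turns noradrenaline into adrenaline, was at 6.43, 6.33 and 7.41 CPM. Of 17 pathway members 16 were listed, and by length-scaled level TH (0.762 ± 0.0487) and the transporter SLC18A2 (0.673 ± 0.129; SD, n = 3) were the lowest, with SDs that overlapped.

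All 6 cofactor genes were at 10 CPM or more. CYB561, the vesicle membrane cytochrome that returns ascorbate for DBH, was at 1063, 1107 and 1187 CPM. GCH1, the first enzyme of tetrahydrobiopterin synthesis, was at 159, 161 and 205 CPM. QDPR (62.0 CPM), PCBD1 (57.6 CPM), SPR (20.6 CPM) and PTS (16.2 CPM) make or recycle the same cofactor. By length-scaled level PCBD1 (171 ± 8.15) and GCH1 (140 ± 21.7; SD, n = 3) were above QDPR (95.7), PTS (43.4) and SPR (33.6).

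The noradrenaline transporter SLC6A2, which takes noradrenaline back from the synapse, was at 858, 793 and 893 CPM. Of the transporters that load catecholamines into vesicles, SLC18A1, the form of chromaffin cells, was at 93.4, 98.8 and 102 CPM. SLC18A2, the form of most neurons, was at 0.884, 1.30 and 1.15 CPM, on 24.7, 23.6 and 31.4 estimated counts. The SLC18A1 level was 129 ± 21.4 times that of SLC18A2 on the length-scaled scale (SD, n = 3). The dopamine transporter SLC6A3 was not listed. Of the breakdown enzymes, MAOA had a mean of 14.6 CPM and MAOB of 5.67 CPM.

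The listed genes of other transmitters were low with a few exceptions. SLC18A3, the vesicular acetylcholine transporter, was at 24.35, 24.49 and 24.02 CPM, and ACHE, which degrades acetylcholine, was at 8.84, 10.6 and 13.5 CPM, while CHAT and SLC5A7, which make acetylcholine and take up choline, were not listed. FEV, an ETS factor known from serotonin neurons, was at 164, 162 and 163 CPM and stood at place 10 in length-scaled level among the 513 transcription factors of the families searched, whereas TPH2 (0.721 CPM) and SLC6A4 (0.531 CPM), the serotonin enzyme and transporter, were under 1 CPM and TPH1 was not listed. GAD1 (4.91 CPM) was the highest GABA gene and SLC17A7 (1.05 CPM) the sole listed vesicular glutamate transporter of 3.

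**Figure D3:**
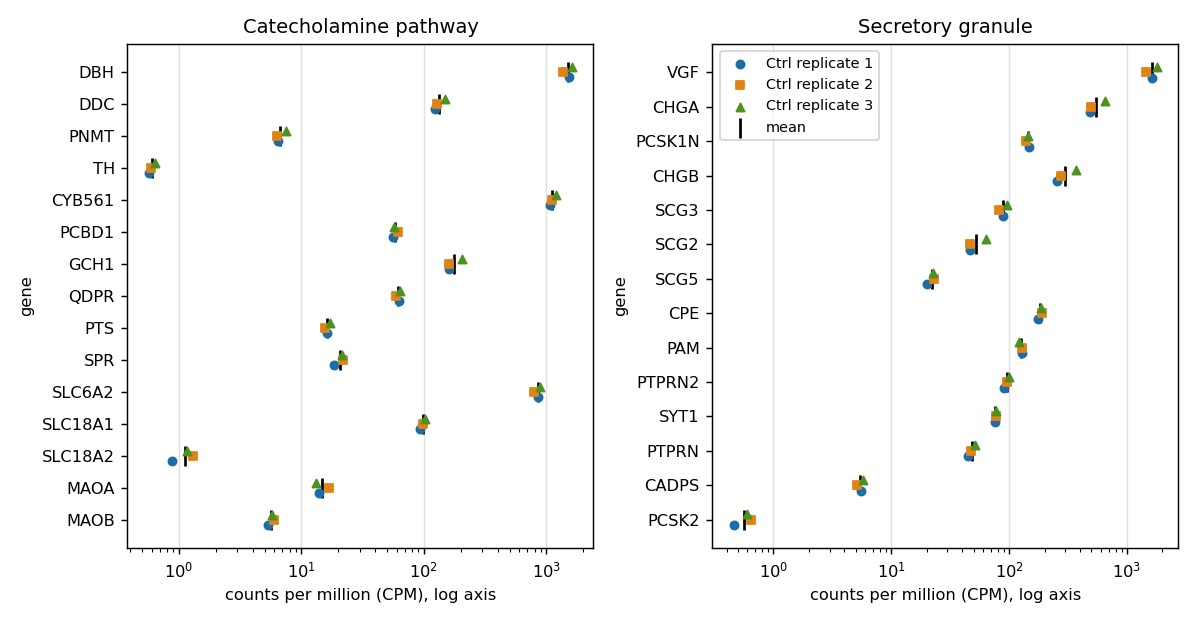
CPM (log axis) of listed genes of the catecholamine pathway (left) and the secretory granule (right) in each control library (coloured symbols) and their mean (black bar). TH and SLC18A2, near 1 CPM, stand apart from the other steps on the left, and CHGA, CHGB and SCG2 are highest in Ctrl replicate 3 on the right.

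All 7 granin family genes were at 10 CPM or more. VGF, the precursor of several secreted neuropeptides, was the highest at 1630, 1445 and 1808 CPM. CHGB, chromogranin B, was at 254, 276 and 372 CPM. PCSK1N, an inhibitor of a granule protease, was at 148, 139 and 145 CPM. SCG3 (mean 89.3 CPM), SCG2 (52.2 CPM) and SCG5 (22.0 CPM) were lower. Of the 7, 5 were highest in Ctrl replicate 3, and none was lowest there. The median CV of the 7 was 11.1%, beside 4.55% over all genes at 10 CPM or more.

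Among the genes that process granule cargo, CPE, a carboxypeptidase, had a mean of 183 CPM, and PAM, which amidates peptides, of 125 CPM. Of the prohormone convertases that cut the precursors, PCSK1 was not listed and PCSK2 was at 0.459, 0.649 and 0.596 CPM.

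Of 35 neuropeptide precursors 13 were listed and 6 were at 10 CPM or more. NPY, neuropeptide Y, which sympathetic neurons release together with noradrenaline, was at 253, 250 and 321 CPM and, being short, at a length-scaled level of 1152. GAL, galanin, was at 83.0, 80.8 and 82.9 CPM. NMB (mean 21.6 CPM), NMU (20.6 CPM), NPW (14.6 CPM) and STC2 (11.1 CPM) were the others. The opioid precursors PENK, PDYN and POMC were not listed, nor was ADCYAP1, while VIP was at 1.27, 0.919 and 1.15 CPM. Neither were the 3 galanin receptors, and of 5 neuropeptide Y receptors NPY2R alone was listed, with a mean of 9.66 CPM.

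The regions upstream of CHGA, VGF and SLC18A2 are shown because they share 1 motif while their genes stood at 547, 1628 and 1.11 CPM. The motif is the full cyclic AMP response element TGACGTCA, which reads the same on both strands and is bound by CREB family factors. It begins 54 bases upstream of the CHGA start, 79 upstream of the VGF start and 48 upstream of the SLC18A2 start. Each line gives the 150 bases before the RefSeq start, 5′ to 3′ on the strand of the gene, with the motif in capitals. They lie at chr14:92923000-92923149 (plus strand), chr7:101165570-101165719 (minus strand) and chr10:117240964-117241113 (plus strand) of GRCh38.p14.
CHGA: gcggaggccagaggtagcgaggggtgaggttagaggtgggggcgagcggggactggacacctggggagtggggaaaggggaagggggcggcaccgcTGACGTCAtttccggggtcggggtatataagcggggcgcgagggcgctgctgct
VGF: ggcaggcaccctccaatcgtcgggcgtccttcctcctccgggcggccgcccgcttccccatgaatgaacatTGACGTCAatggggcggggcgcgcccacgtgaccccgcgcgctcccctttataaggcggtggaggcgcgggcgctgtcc
SLC18A2: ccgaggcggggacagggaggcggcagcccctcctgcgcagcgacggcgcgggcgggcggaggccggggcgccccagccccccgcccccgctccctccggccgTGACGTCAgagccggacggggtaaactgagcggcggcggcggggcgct

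The same 8 letters were in 649 of 35116 RefSeq promoter windows (1.85%), each of 250 bases before to 50 after a start. The windows of DBH, HAND2, DDC, NPY and PHOX2A were searched as well and held no match, so the regions shown are those with the motif. By gene, 3.06% of 15345 protein-coding genes had a window with the motif. It was in 1.19% of those not listed, 1.07% of those under 1 CPM and 3.20% of those at 1 to 10 CPM. At 10 to 100 CPM the share was 4.17% and at 100 to 1000 CPM 3.65%. Of the 48 genes at 1000 CPM or more, the smallest class and the one that holds VGF, 4 had it (8.33%). A match is a description of letters and says nothing of binding.

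Promoter composition differed between level classes. A CpG ratio (observed over expected CG pairs) above 0.6 was found in 28.8% of the 4116 protein-coding genes with a window but no row, in 50.9% of 652 under 1 CPM, in 72.1% of 2061 at 1 to 10 CPM, in 92.2% of 6550 at 10 to 100 CPM and in 94.9% of 1918 at 100 to 1000 CPM. The letters TATAAA, on either strand, were in the windows of 22.8% of genes not listed, 7.25% of those at 10 to 100 CPM and 18.8% of the 48 at 1000 CPM or more. Genes with several windows counted once, by their highest CpG ratio or any match. DBH went against its class, with a CpG ratio of 0.303 at 1510.3 CPM.

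The highest genes were of the mitochondrial genome, translation and the cytoskeleton. MT-CO1, a subunit of respiratory complex IV, was at 12393, 10462 and 10014 CPM and was first on both scales. EEF1A1, which carries tRNAs to the ribosome, was at 8689, 9293 and 8385 CPM. MT-ND4, MT-CO3, MT-CO2 and MT-ATP6, also of the respiratory chain, followed at 3560 to 4577 CPM, and EEF2, the translocation factor, was at 3525 CPM. RGS5, a regulator of G protein signalling best known from pericytes, was the eighth gene by CPM, at 3207, 3295 and 3533 CPM. MT-ND2, ACTB, GNAS, MT-CYB, TUBB, RPS2, RPL13A, TUBA1B, GAPDH, RPLP0, MT-ND5 and RPL4 made up the rest of the 20 highest. By length-scaled level RGS5 was 89th (1374 ± 79.3; SD, n = 3), and the 20 highest by that scale comprised mitochondrial genes, ribosomal protein genes (among them RPS18 and RPS27), EEF1A1, GAPDH and ACTB, with the short genes MT-ATP8, MT-ND4L and MT-ND1 in addition.

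**Figure D4:**
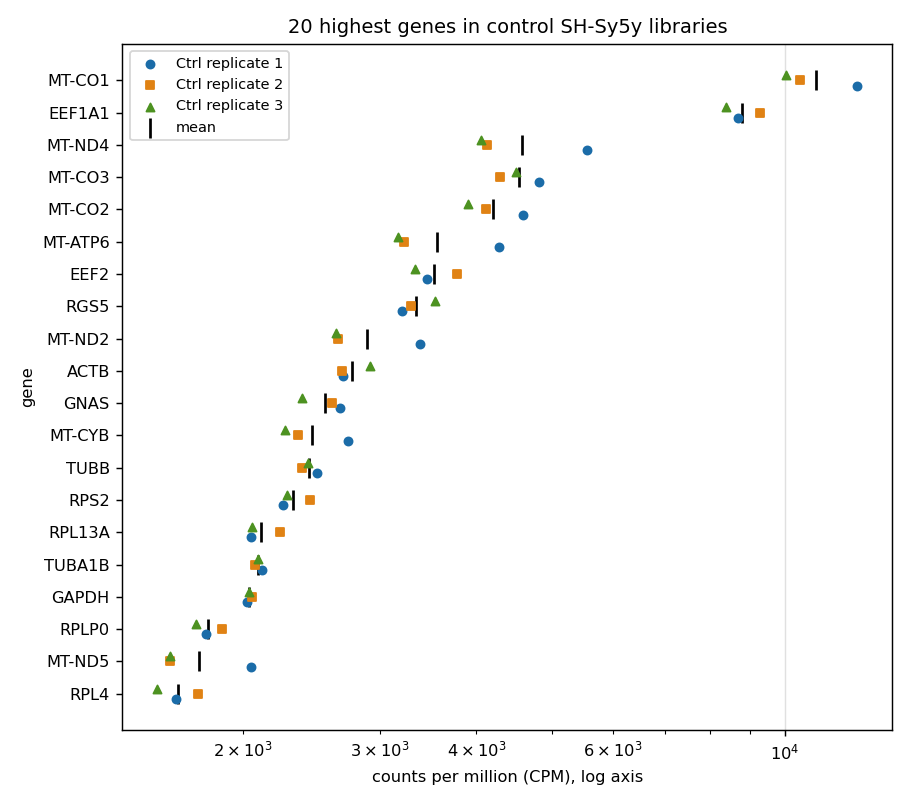
CPM (log axis) of the 20 genes with the highest mean in each control library (coloured symbols) and their mean (black bar). The mitochondrial genes are highest in Ctrl replicate 1, with MT-CO1 at 12393 CPM there and 10014 CPM in Ctrl replicate 3, while EEF1A1, EEF2 and the ribosomal protein genes are highest in Ctrl replicate 2.

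The libraries were not dominated by few genes. In Ctrl replicates 1, 2 and 3 it took 1238, 1244 and 1268 genes to reach 50% of the counts, and the 10 highest genes held 5.33%, 4.83% and 4.71%. The 13 protein genes of the mitochondrial genome held 4.35%, 3.60% and 3.57% of the counts, and 85 cytosolic ribosomal protein genes 5.63%, 5.98% and 5.63%.

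Neuronal structure genes were all listed, 24 of 27 at 10 CPM or more and 21 at 100 CPM or more. STMN1 and STMN2, which destabilise microtubules, were at means of 664 and 654 CPM. UCHL1, the neuronal ubiquitin hydrolase PGP9.5, was at 456, 474 and 487 CPM. TUBB2B, another tubulin of young neurons, had a mean of 585 CPM. TUBB3, the neuronal beta tubulin, was at 557, 548 and 613 CPM, and DPYSL3, a growth cone protein, was at 1436, 1506 and 1579 CPM. Cell cycle genes stood beside these neuronal genes: 18 of 20 cycle genes and 15 of 15 replication genes were at 10 CPM or more. CCND1, the cyclin of early G1 phase, was at 917, 898 and 1035 CPM, TOP2A was at 432, 422 and 393 CPM and MCM7, part of the replicative helicase, was at 595, 563 and 558 CPM. CDK4, the kinase of CCND1, had a mean of 232 CPM, TYMS, which makes thymidylate, of 210.1 CPM and the sliding clamp PCNA of 161 CPM. CCND2 was not listed.

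Of 39 genes known from neuroblastoma 38 were listed and 36 were at 10 CPM or more. MYC was at a mean of 95.7 CPM, whereas MYCN, the gene amplified in aggressive tumours, was at 5.34, 4.27 and 4.62 CPM. On the length-scaled scale MYC was 14.3 ± 2.28 times MYCN (SD, n = 3). DLK1, a surface protein of chromaffin precursors, was at 535, 491 and 572 CPM, and ODC1, the first enzyme of polyamine synthesis, was at 340, 341 and 321 CPM. CDKN1A, the cell cycle inhibitor p21, was at 165, 225 and 263 CPM. The tumour antigens L1CAM (308 CPM), NCAM1 (254 CPM), CD276 (154 CPM) and GPC2 (129 CPM) were above 100 CPM. Of the enzymes that make the ganglioside GD2, B4GALNT1 was at 74.6, 70.1 and 77.7 CPM and ST3GAL5 had a mean of 11.5 CPM, while ST8SIA1 was not listed.

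The receptors were read next, first the receptor tyrosine kinases. Of 58 such genes 44 were listed, 27 at 10 CPM or more and 9 at 100 CPM or more. The shares listed and at 10 CPM or more, 75.9% and 46.6%, were near the 70.2% and 51.5% of all protein-coding genes. RET, the receptor of GDNF family ligands, was the highest by far at 947, 1056 and 983 CPM. On the length-scaled scale RET was 11.9 ± 0.687 times ALK (SD, n = 3), the receptor mutated in part of neuroblastomas, which was at 93.1, 92.9 and 93.7 CPM. PTK7, a pseudokinase of Wnt signalling, followed RET in length-scaled level (136), at 252, 244 and 244 CPM. The neurotrophin receptors NTRK2 and NTRK3 had means of 4.08 and 0.431 CPM.

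The receptors PDGFRA, INSRR, PDGFRB, IGF1R and EPHB4 had length-scaled levels of 48.1 to 51.3, with SDs that overlapped, and were not separated here. IGF1R, the insulin-like growth factor receptor, was at 264, 270 and 254 CPM, and EGFR was at 148, 147 and 131 CPM. AATK, DDR1, RYK, LMTK2, DDR2, FGFR1, EPHA2, ROR2, LTK, EPHB2, TYRO3, LMTK3, MERTK, ROR1, INSR, EPHB3 and ERBB2 made up the rest at 10 CPM or more, with means between 13.5 CPM (EPHB3) and 140 CPM (DDR2). KIT had a mean of 3.51 CPM and AXL of 0.582 CPM. MET, KDR, CSF1R, FLT3, TEK, EPHA3, EPHA4 and EPHA5 were among the 14 not listed. Of the 27 receptors, 16 were lowest in Ctrl replicate 3, beside 3428 of all 10497 genes at 10 CPM or more.

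Partners of these receptors were uneven. RET signals through the GFRA co-receptors, of which GFRA3, the partner of artemin, was at 26.8, 22.1 and 29.5 CPM, GFRA1 and GFRA2 were at means of 1.72 and 1.75 CPM and GFRA4 was not listed. NGFR, the low-affinity neurotrophin receptor, had a mean of 1.80 CPM. CNTFR, the ciliary neurotrophic factor receptor, was at 155, 162 and 140 CPM, and its signalling partners IL6ST and LIFR had means of 93.8 and 30.1 CPM.

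Of 15 trophic ligands 9 were listed. MDK, the heparin-binding factor midkine, was at 604, 621 and 609 CPM and at a length-scaled level of 1715. Its relative PTN (mean 135 CPM) and VEGFA (119.5 CPM) were also above 100 CPM. IGF2, a ligand of IGF1R, was at 457, 334 and 413 CPM, lowest in Ctrl replicate 2. NTF3, GDNF and IGF1 were not listed, BDNF was at a mean of 0.506 CPM and the ALK ligand ALKAL2 of 0.403 CPM.

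Morphogen receptors were moderate. SMO, which passes on the Hedgehog signal, was at 93.9, 101 and 79.0 CPM and its inhibitor PTCH1 at 46.8, 42.4 and 28.2 CPM. Of 12 receptors of the BMP, TGF-beta and activin family 9 were at 10 CPM or more and none at 100 CPM, with TGFBR2 at 12.5, 13.3 and 11.2 CPM. ACVR1B, an activin receptor, had a mean of 55.9 CPM and DLL3, a Notch ligand family member, of 19.9 CPM. Of 12 Notch and Hedgehog genes 8 were at 10 CPM or more, and the median CV of these 8 was 12.8%.

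Of 250 G protein-coupled receptors in the families searched, 117 were listed, 54 at 10 CPM or more and 10 at 100 CPM or more, beside 14050, 10306 and 2379 of 20020 protein-coding genes of the annotation. ADGRL2, a latrophilin that binds across the synapse, was the highest at 438, 422 and 419 CPM. LGR5, the R-spondin receptor and stem cell marker, was at 173, 155 and 129 CPM. ADGRB2, ADGRA2, CELSR3, SMO, ADGRA3, GPR137, GPR107 and ADORA2A followed, with length-scaled levels from 60.2 to 37.8. By the families searched, 5 of these 10 were adhesion receptors and 3 were of the orphan GPR and LGR group. ADORA2A is a receptor of adenosine.

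Of the transmitter receptors below the top 10, the muscarinic receptor CHRM3 had a mean of 124 CPM, while the other 4 muscarinic receptors were at 0.691 to 4.72 CPM. The opioid receptors OPRM1 (108 CPM), OPRD1 (54.9 CPM) and OPRL1 (12.8 CPM) were listed. Of 9 adrenergic receptors, ADRA2C, a presynaptic autoreceptor, was at a mean of 34.6 CPM and ADRA2A at 2.02 CPM, and no other was listed. DRD2 was at a mean of 11.6 CPM. These receptors were named after their values were seen.

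Of 69 ligand-gated channel genes 34 were listed (49.3%) and 17 were at 10 CPM or more (24.6%), beside 70.2% and 51.5% of all protein-coding genes. CHRNA3, the nicotinic subunit of autonomic ganglia, was first at 466, 473 and 512 CPM. CHRNB4 and CHRNA5, which lie beside CHRNA3 in one gene cluster, were at 63.7, 53.6 and 60.2 CPM and at 70.3, 67.8 and 74.7 CPM. On the length-scaled scale CHRNA3 was 7.08 ± 0.683 times CHRNB4 (SD, n = 3). CHRNB2 (139 CPM), CHRNA7 (45.0 CPM) and CHRNB1 (21.5 CPM) were the other nicotinic subunits at 10 CPM or more. GRIK5, a kainate receptor subunit that needs a partner to form a channel, was at 104, 105 and 110 CPM, GRIN1, the obligatory NMDA subunit, had a mean of 57.9 CPM and P2RX4 of 11.3 CPM.

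Of 64 voltage-gated channel genes 38 were listed (59.4%) and 19 were at 10 CPM or more (29.7%), beside the same 70.2% and 51.5%. KCNH2, which encodes the hERG potassium channel, was at 683, 702 and 720 CPM, with a length-scaled level of 381 ± 12.9 (SD, n = 3). HCN2, HCN3, KCNC1, KCNG1, KCNH1, the sodium channels SCN3A and SCN9A and the N-type calcium channel CACNA1B were lower, at means of 14.6 to 50.2 CPM.

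Transcription factor families were occupied unevenly. Of 513 factors of the families searched 303 were listed, 195 at 10 CPM or more and 53 at 100 CPM or more. The shares listed and at 10 CPM or more were 59.1% and 38.0%, beside 70.2% and 51.5% of all protein-coding genes. By length-scaled level the 25 highest were led by HAND2, PHOX2A, GATA2, TWIST1 and GATA3, then ID3, ID1, ID2, SOX4, FEV, ATF4 and TCF4. Of the genes from ISL1 (221) to TFDP1 (124), ISL1, TFAP2B, HAND1 and TBX2 belong to the noradrenergic list, while TCF3, NR2F6, JUND, E2F4, MEIS3 and FOXM1 do not. SOX4, a factor of neuronal precursors, was at 607, 627 and 568 CPM, and TCF4 and TCF3, the general partners of helix-loop-helix factors, had means of 780 and 396 CPM.

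The listed HOX genes were of the HOXC and HOXD clusters. None of 11 HOXA and 10 HOXB genes was listed, against 7 of 9 HOXC and 8 of 9 HOXD genes. The highest were HOXC4 at 32.9, 30.1 and 28.5 CPM and HOXD9 at 29.1, 28.8 and 25.5 CPM, and 3 genes of each cluster were at 10 CPM or more. Of 9 PAX genes PAX5 alone was listed (28.9 CPM), of 14 NKX genes NKX2-5 alone (0.492 CPM) and of 3 RUNX genes RUNX1 alone. In contrast, all members of the SMAD (8), NFI (4), TEAD (4) and ID (4) families were at 10 CPM or more. The 4 GATA factors listed were GATA2, GATA3, GATA4 (135 CPM) and GATA5 (1.24 CPM). These single genes were named after their values were seen.

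Gene families of other tissues were sparse, beside 70.2% of all protein-coding genes listed and 51.5% at 10 CPM or more. Of 416 olfactory receptor genes 26 were listed and none was at 10 CPM. Of 55 keratins 4 were listed, with KRT10 at 15.5 CPM and KRT18 at 0.276 CPM. Of 94 keratin-associated genes 2 were listed, KRTAP5-2 at 2.72 CPM the higher. No interferon gene of 22 was listed, and of 44 chemokines 5 were, with CX3CL1 (26.0 CPM) alone above 10 CPM. Of 44 interleukins 11 were listed and none reached 10 CPM. Of guidance and adhesion families, 8 of 8 ephrins, 19 of 20 semaphorins, 62 of 66 protocadherins and 6 of 24 claudins were listed. At 10 CPM or more were 8 ephrins, 11 semaphorins, 15 protocadherins and 2 claudins. Of 508 ZNF zinc finger genes 481 were listed (94.7%), 332 at 10 CPM or more (65.4%).

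Of 62 MAGE and other cancer-testis genes 11 were listed. MAGEA3 was the highest, at 135, 137 and 146 CPM, and MAGEA6 had a mean of 52.0 CPM. SSX2IP (59.1 CPM) is named for binding an SSX protein and was matched by name alone. MAGEA3 and MAGEA6 are near-identical copies, so the split of reads between them is uncertain.

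Of 28 interferon response genes 6 were at 10 CPM or more and none at 100 CPM, with STAT2 at a mean of 58.2 CPM, IRF9 of 16.7 CPM and IRF7 of 14.0 CPM, and IFI6 at 19.6, 23.9 and 20.3 CPM. The cytokine and death receptors TNFRSF25 (52.8 CPM), IFNGR2 (45.2 CPM) and TNFRSF10B (92.3 CPM) led their list of 29 with IFNGR1 (24.6 CPM) and TNFRSF12A (8.17 CPM), the 5 highest by length-scaled level, and 10 of the 29 were at 10 CPM or more. Of 18 immediate early genes 7 were at 10 CPM or more. The 5 highest by length-scaled level were JUND (149 CPM), IER2 (114 CPM), JUNB (62.5 CPM), JUN (59.1 CPM) and NR4A1 (30.8 CPM). In antigen presentation, B2M was at 112, 139 and 123 CPM and TAPBP, HLA-C and PSMB10 had means of 66.0, 42.6 and 10.0 CPM, whereas HLA-B was at a mean of 1.06 CPM and HLA-F and HLA-G were not listed. HLA genes are close copies of each other and differ between people, so reads can be assigned to the wrong one and their levels are uncertain.

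The 3 controls were close to each other. The common biological coefficient of variation, which edgeR estimates after removing counting noise, was 5.61%. Over the 10497 genes at 10 CPM or more the median CV was 4.55%, beside 2.96% that counting alone would give, and the highest of the 3 libraries was more than 1.5 times the lowest in 56 genes (0.534%). Between 1 and 10 CPM the median CV was 12.9%, beside 10.7% from counting, and in the 66 genes at 1000 CPM or more it was 4.42% beside 0.546%. The median spread of low genes was thus close to counting noise, and that of the highest genes was several times it. The median SD of log2 CPM over all genes was 0.0851.

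The 10 genes with the widest spread at 10 CPM or more included PTP4A1, GDF15, GP1BB, EGR1, PDZK1, COL3A1, SLX1B and the Ensembl entries ENSG00000225840 and ENSG00000285976, which have no symbol. The values of the first of these are not given here. GDF15, a secreted stress factor, was at 9.40, 10.8 and 19.2 CPM. EGR1, an immediate early factor, was at 25.8, 24.3 and 44.8 CPM, and the collagen COL3A1 at 48.4, 47.2 and 24.1 CPM. PDZK1, a scaffold protein, was at 9.15, 9.57 and 16.4 CPM. COL3A1 was lower and GDF15, EGR1 and PDZK1 higher in Ctrl replicate 3 than in both other controls.

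Several of the widest spreads were of genes that overlap or copy another. PTP4A1, a phosphatase on chromosome 6, was at 43.5, 67.6 and 108 CPM, while ENSG00000285976, which overlaps it by 11116 bases, was at 98.6, 69.8 and 43.3 CPM. The 2 moved in opposite directions across the libraries, and their sum was 142, 137 and 152 CPM, a CV of 5.11% in place of 44.9% and 39.1%. SLX1B was at 15.7, 7.62 and 12.2 CPM, beside its copy SLX1A at a mean of 134.1 CPM. GP1BB was at 16.2, 7.19 and 13.9 CPM, and its sum with SEPTIN5, which it overlaps by 686 bases, kept a CV of 15.7%. The sums were computed after the single values were seen. The 10 genes with the narrowest spread included TXNRD2, DRG2, COG3, WRN, CNPY3, BTG3, KAT14, OARD1 and PCNP, and the 10 had CVs of 0.071% to 0.174%. These lie below the 1.88% to 5.05% that counting alone gives them, as did 25.3% of all genes at 10 CPM or more.

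Whole gene groups shared the library in which they were highest. Over all genes at 10 CPM or more, 33.0%, 33.4% and 33.6% were highest in Ctrl replicates 1, 2 and 3. Of these 10497 genes, 3626, 3443 and 3428 were lowest in the same replicates, in that order. Of the 13 mitochondrial genes 12 were highest in Ctrl replicate 1, where their median stood 0.18 above the mean of the 3 controls on the log2 scale. Of 85 ribosomal protein genes 72 were highest in Ctrl replicate 2, though by a median of only 0.06 on the log2 scale. Of 332 ZNF zinc finger genes 185 were highest in Ctrl replicate 1.

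In Ctrl replicate 3, 18 of 24 neuronal structure genes, 24 of 35 proteasome subunits, 5 of 7 granins and 6 of 7 immediate early genes were highest, and 11 of 19 noradrenergic factors and 7 of 8 mesenchymal surface and matrix genes were lowest. The members of a group share a library and its scaling, so such counts are not independent observations, and no test was run on them. Across genes at 10 CPM or more, the log2 ratio of Ctrl replicate 1 to Ctrl replicates 2 and 3 correlated with log transcript length at 0.157 and 0.159, and that of Ctrl replicate 2 to Ctrl replicate 3 at 0.0109. The part of length in the group differences was not tested.

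**Figure D5:**
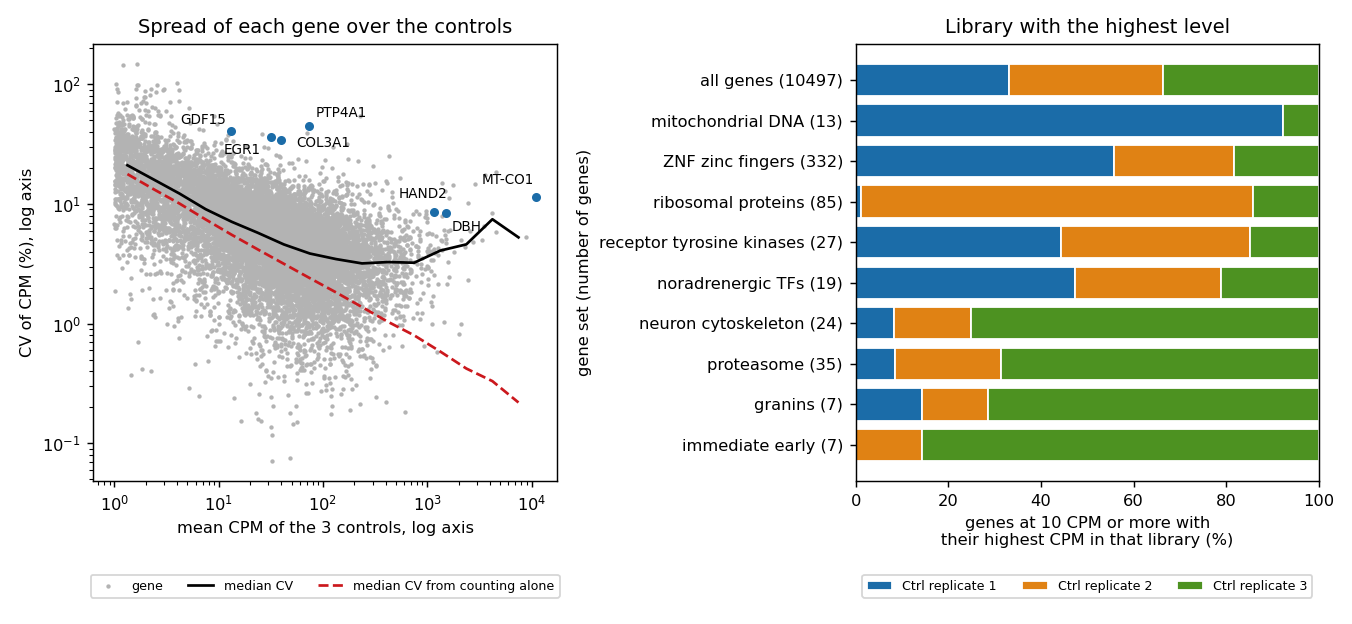
Left, CV of CPM (%, log axis) against mean CPM (log axis) for each gene at 1 CPM or more, with the median CV (black) and the median that counting alone gives (red, dashed) and 7 named genes in blue. Right, share of genes at 10 CPM or more (%) that were highest in each control library, for all genes and 9 gene sets: all genes divide at 33.0%, 33.4% and 33.6%, while mitochondrial genes favour Ctrl replicate 1, ribosomal protein genes Ctrl replicate 2 and granins Ctrl replicate 3.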

How the data were processed

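Polyadenylated RNA of SH-Sy5y cells was sequenced, 1 library per replicate, after preparation with a NEBNext Ultra kit. The authors quantified transcripts with salmon (version not given in the sources used here) against GRCh38.p13 and Ensembl 107, added transcripts up per gene symbol, and dropped weakly expressed genes by means of filterByExpr. Their deposited values are estimated counts, of which 88.8% are not whole numbers, and every value column could be tied to a sample. The authors' log2 table corrected for surrogate variables and their tables of comparisons (log2 fold change, p-value, adjusted p-value) were not used.

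After rounding to integers, the counts were scaled to CPM with TMM factors over all 9 libraries (edgeR 4.0.16, R 4.3.3). Log2 CPM had a prior count of 2. Length-scaled levels used the canonical or MANE transcript of GENCODE 44 (GRCh38.p14), a later build than the authors' p13. Of the rows, 14105 matched by identifier, 754 by symbol and 84 by neither, and these 84 hold 0.266% of the counts. The effective lengths of salmon were not used here. Overlapping genes, close copies and antisense genes can exchange reads, since no source used here gives the strand setting of the counting. The CV from counting alone was taken from the expected Poisson spread of the 3 libraries. Promoter windows came from RefSeq (GRCh38.p14). Tables and plots were made with Python 3.11.15, pandas 2.3.3, numpy 2.4.6 and matplotlib 3.10.9. The dispersion estimate was tested on simulated data.

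The members and gene lists were chosen with earlier results of these data known. Named were the 20 highest genes on each scale, all members at 10 CPM or more of the lineage marker, catecholamine, granin and receptor tyrosine kinase lists, the 5 highest of each other list, the 25 highest transcription factors, the 10 highest of each receptor and channel class, and the 10 genes with the widest and the 10 with the narrowest CV at 10 CPM or more. Low members and members without a row were named beside them after their values were seen. With 1 group there was no comparison between groups and no p-value. Some genes that the rule selects are not reported here.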

Additional observations from a re-analysis of the deposited data

How the results depend on the processing

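No paired analysis was possible because the values describe 1 group and come from no test. The alternatives were another scaling (library totals, DESeq2 1.42.0 size factors, TMM over the controls alone), a limit of 1 CPM, other transcript lengths and leaving out each control. The median SD of log2 CPM was 0.0786 with genes of 1 CPM or more, and 0.0698 to 0.0706 with 1 control left out, where the SD rests on 2 libraries. The median length-scaled level of the noradrenergic factors was 98.4 with the longest transcript, 133 with the union of exons, and 72.2 to 83.1 with 1 control left out. That of the mesenchymal factors was 7.26 with the union of exons. Of the 20 highest genes by length-scaled level, 15 were shared with the longest transcript and 13 with the union of exons. Levels were compared with their SD between replicates, and counts with a change of 1.5 times. For the median SD of log2 CPM the limit was 0.00042, the SD of its values with 1 control left out. In all, 45 of 53 recomputed values moved by less than these limits. These include all 24 of HAND2, GATA3, DBH and CHGA. Leaving out 1 control cannot move the mean of the controls by as much as their SD. For these genes that part of the comparison was fixed in advance and shows no stability. Genes with short annotated transcripts have the least certain length-scaled levels. Depth limits low genes most: under 1 CPM the median CV was 28.6%, beside 26.0% from counting alone.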

Other observations

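Families outside the lists of the report gave further values. Of 44 collagen genes 26 were listed and 11 were at 10 CPM or more, led by COL4A2 (278 CPM) and COL4A1 (148 CPM) of basement membranes. Of 30 genes matched as integrins 19 were listed, with ITGB1 at 608 CPM and ITGA9 at 195 CPM the highest. Of 17 synaptotagmins 15 were listed, with SYT4 (412 CPM) above SYT1 (76.6 CPM), the calcium sensor of fast release. The replication-independent histone H3-3A was at 898 CPM, while replication-dependent histone genes such as H2BC12 (14.0 CPM) were low. Replication-dependent histone transcripts mostly lack a poly(A) tail, and the libraries were made from polyadenylated RNA. These genes were named after their values were seen, and their levels are in CPM and not per length, so the order between genes is one of counts.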
